A study of Homo sapiens with 12 samples.

Results

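The apolipoprotein L family comprises 6 human genes, APOL1 to APOL6, in a cluster on chromosome 22. Their rows were picked by symbol from a table of 58051 genes, and the family was singled out because APOL4 had been seen among the largest rises after interferon gamma (IFN-γ). The IFN-γ responses of the family are therefore given below as a description, with no test, while the differences between genotypes were tested. The family and the gene lists set beside it were chosen with earlier results of these data known. The shares called in a list are therefore a description. The cells were THP-1, a human monocytic leukaemia line, turned into macrophage-like cells with the phorbol ester PMA (20 ng/ml for 24 h), which every group received. Total RNA gave 12 sequencing libraries in 4 groups of 3: SDC3-knockout cells with IFN-γ, wild-type cells with IFN-γ, untreated knockout cells and untreated wild-type cells. SDC3 encodes the proteoglycan syndecan-3 and was disrupted with CRISPR/Cas9; the series was designed to ask how syndecan-3 affects the pro-inflammatory functions of macrophages. IFN-γ was added the day after the medium change, at a dose and for a time that the labels do not give. The design speaks of knockout lines in the plural, but no label ties a library to a line, so the knockout may stand for a single clone.

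APOL proteins insert into or act on lipid membranes. APOL1 is the secreted member: it travels in blood on high-density lipoprotein particles and lyses trypanosomes by forming an ion channel. The other members lack that secretion route and stay inside the cell. APOL3 is known in human cells as an interferon-induced, detergent-like protein that breaks the membranes of bacteria that have reached the cytosol. IFN-γ signals through the receptor chains IFNGR1 and IFNGR2 and the kinases JAK1 and JAK2, and induces the transcription factor IRF1.

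The 6 genes lie between bases 35648395 and 36267530 of chromosome 22 (hg38), a span of 619 kb. APOL6 (35648395 to 35668409) and APOL5 (35717872 to 35729483), both on the plus strand, form the left end. The splicing regulator RBFOX2 lies in the 410.8-kb gap that follows. APOL3 (36140330 to 36166177), APOL4 (36189124 to 36204840) and APOL2 (36226203 to 36239954) come next on the minus strand, and APOL1 (36253010 to 36267530) ends the run on the plus strand. No counted exon base of a member was shared with another gene of the table. Among the annotated transcripts of GENCODE 29, no 100-base stretch of a member occurred in another gene. At 50 bases, at most 0.608% of a member's stretches occurred in another member and at most 3.94%, in APOL1, in any other gene.

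Reads assigned to genes numbered 23616738 to 29426415 in a library, and 17119 genes passed the low-count filter and were tested. SDC3 averaged 239 CPM (counts scaled to the TMM-adjusted library size) in knockout cells and 580.2 CPM in wild-type cells with IFN-γ, and 47.3 against 230.0 CPM without it, so its transcript was lower in the knockout but present. Of 10 myeloid and macrophage markers, 9 stood above 1 CPM in every group, and their summed level was 5605 to 5764 CPM in the knockout against 6576 to 6672 CPM in wild-type cells with IFN-γ, and 4314 to 4421 against 4877 to 4987 CPM without it. CD68 was the exception, with group means of 0.131 to 0.540 CPM. Whether its exons are shared with another gene was not checked, and nothing is read from its low value. T-cell markers summed to at most 0.191 CPM in any library. The 4 endothelial markers summed to 1.30 to 1.63 CPM in the knockout and 2.43 to 2.89 CPM in the wild type with IFN-γ, and to 4.87 to 5.40 against 13.1 to 14.8 CPM without it. This was mostly VWF, while CDH5 averaged at most 0.0665 CPM in a group. Hepatocyte markers summed to 22.1 to 27.2 CPM in the knockout against 13.8 to 14.2 CPM in wild-type cells with IFN-γ, and to at most 19.1 against at most 9.07 CPM without it, nearly all of it SERPINA1, with the defining marker ALB under 0.1 CPM. Fibroblast markers, mostly COL1A1, summed to 16.7 to 20.2 CPM in the knockout against 8.26 to 10.1 CPM in wild-type cells with IFN-γ. Without it they summed to 12.65 to 15.8 against 11.1 to 13.6 CPM. B-cell markers, with MS4A1 at 0, summed to 1.91 to 1.99 against 2.00 to 3.88 CPM with IFN-γ and 2.36 to 2.97 against 3.32 to 3.70 CPM without it. Epithelial markers summed to 1.76 to 2.47 against 2.04 to 2.48 CPM with IFN-γ and 0.258 to 0.504 against 1.11 to 1.85 CPM without it. The part of these marker differences in the APOL values was not tested. In bulk RNA, fewer cells of a type and less RNA per cell cannot be told apart. Whether the 3 libraries of a group are separate cultures is not in the labels, and the p-values reflect only their spread, which may be technical.

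Of the 6 members, 5 were expressed and tested. APOL5, whose function is little known, had 0 counts in all 12 libraries, which allows a level of up to 0.0925 to 0.130 CPM in a library (3 counts, counting error only); with mates counted separately, the limit in fragments is looser. The other members passed the filter, APOL4 through its IFN-γ libraries alone.

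APOL4, an intracellular member of little known function, was the rarest detected member without IFN-γ and an abundant one with it. Its transcript reached 475, 475 and 464 CPM in IFN-γ-treated knockout cells against 413, 411 and 423 CPM in wild-type cells with IFN-γ. Without IFN-γ the knockout libraries held 7, 8 and 6 counts (0.252, 0.255 and 0.194 CPM) and the wild-type libraries 9, 10 and 12 counts (0.343, 0.308 and 0.403 CPM). Every treated library was thus far above every untreated one, in both genotypes. The log2 fold change with IFN-γ was 10.95 (SE 0.25) in the knockout, a 1983-fold difference, and 10.19 (SE 0.21) in the wild type, a 1170.2-fold difference. By size APOL4 was the 4th largest rise of the 17119 genes in the knockout and the 5th in the wild type. The few untreated counts limit the precision of these folds, and since mates of a read pair were counted separately, they stem from fewer fragments than counts.

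APOL1, the secreted trypanolytic member, was at 508, 518 and 504 CPM in knockout cells with IFN-γ against 296, 302 and 299 CPM in wild-type cells with IFN-γ. The untreated knockout had 31.5, 31.9 and 30.9 CPM and the untreated wild type 21.3, 20.5 and 21.4 CPM. None of the 4 groups overlapped, and the knockout was the higher genotype with and without IFN-γ. The response to IFN-γ was 4.02 on the log2 scale (SE 0.04) in the knockout and 3.83 (SE 0.05) in the wild type.

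APOL3, the membrane-lysing antibacterial member, was at 132, 134 and 145 CPM in knockout cells with IFN-γ against 80.2, 89.8 and 80.6 CPM in wild-type cells with IFN-γ. Without IFN-γ it was at 9.72, 8.42 and 9.20 CPM in knockout cells against 6.97, 5.12 and 4.56 CPM in wild-type cells. Here too no groups overlapped, and the untreated wild type scattered most, with an SD of 22.8% of its mean. The response was 3.91 (SE 0.08) in the knockout and 3.93 (SE 0.10) in the wild type on the log2 scale.

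APOL6, an intracellular member described as pro-apoptotic when overexpressed, was at 1313, 1349.7 and 1345 CPM in the knockout with IFN-γ against 1041, 968 and 1049 CPM in wild-type cells with IFN-γ. Untreated knockout libraries had 88.2, 93.6 and 92.0 CPM and untreated wild-type libraries 66.8, 63.9 and 63.1 CPM. The knockout libraries were again all above the wild-type libraries under the same treatment. The response was 3.87 (SE 0.04) in the knockout and 3.98 (SE 0.04) in the wild type on the log2 scale.

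APOL2, also intracellular, had the smallest response of the detected members in either genotype and was the only member called in opposite directions between genotypes in the 2 treatments. With IFN-γ it was at 329.7, 336 and 345 CPM in knockout cells against 270.5, 262 and 258 CPM in wild-type cells. Without IFN-γ it was at 31.1, 30.4 and 29.2 CPM in knockout cells against 38.2, 40.1 and 41.2 CPM in wild-type cells. All knockout libraries were thus above the wild-type libraries with IFN-γ and below them without it. The response was 3.48 (SE 0.05) in the knockout and 2.72 (SE 0.04) in the wild type on the log2 scale.

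The background to these responses was broad: of all tested genes, 29.2% were called higher and 31.8% lower with IFN-γ in the knockout (61.1% in all), and 28.6% higher and 27.9% lower in wild-type cells (56.5% in all), at an adjusted p under 0.05 in edgeR's quasi-likelihood test. All 5 detected members were among the genes called higher, which is the measure the family was chosen by. Genes higher made up 47.9% of the calls in the knockout and 50.7% in the wild type with TMM scaling, 36.4% and 37.5% with upper-quartile scaling, and 23.4% and 25.1% with library totals alone. Upper-quartile scaling shifted the median response by -0.12 in the knockout and -0.11 in the wild type, and library totals alone by -0.30 and -0.25, far less than the rise of any detected member.

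**Figure D1:**
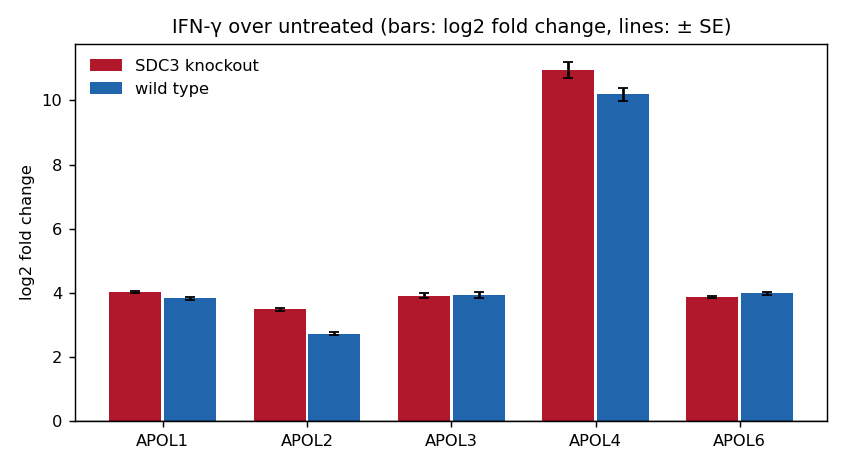
Log2 fold change with IFN-γ over untreated cells for each detected APOL gene in the SDC3 knockout and the wild type; bars are the fitted values and lines ± SE. APOL4 stands at 10.95 and 10.19, the other genes between 2.72 and 4.02.

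The make-up of the family differed with IFN-γ as well as its summed level, and both are given as a description. To compare levels between genes, CPM was divided by the counted exon length in kilobases. That length joins all annotated exons of a gene, 10121 bases for APOL6 and 3519 for APOL1. It may differ from the length of the transcripts expressed, so shares and orders of members hold only for this measure. Summed over the family, this level was 505 ± 4.37 CPM per kb (SD, n = 3) in the knockout and 370.3 ± 3.94 in the wild type with IFN-γ, and 28.2 ± 0.327 in the knockout and 24.8 ± 0.214 in the wild type without it. The treated sum was 17.9 times the untreated one in the knockout and 14.9 times in the wild type. APOL4 supplied 21.3% of the family level in the knockout and 25.6% in the wild type with IFN-γ, against 0.189% in the untreated knockout and 0.323% in the untreated wild type. APOL2 supplied 19.2% in the knockout and 20.4% in the wild type with IFN-γ, and 30.7% and 46.1% without it. The untreated wild type was the group in which APOL2 was the leading member per kilobase, at 11.4 ± 0.447 CPM per kb against 6.38 ± 0.192 for APOL6, the next. In the untreated knockout, APOL6 (9.02 ± 0.274 CPM per kb), APOL1 (8.93 ± 0.135) and APOL2 (8.68 ± 0.279) had overlapping ranges and cannot be ordered.

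With IFN-γ, the order per kilobase in the knockout was APOL1 (145 ± 2.04 CPM per kb), APOL6 (132 ± 1.99), APOL4 (108 ± 1.43), APOL2 (96.7 ± 2.15) and APOL3 (23.2 ± 1.21), with no overlap between neighbours in that order. In the wild type with IFN-γ, APOL6 (101 ± 4.40) and APOL4 (94.9 ± 1.46) overlapped, followed by APOL1 (85.0 ± 0.959), APOL2 (75.6 ± 1.90) and APOL3 (14.2 ± 0.923). By this measure APOL1 led the family in treated knockout cells and stood behind APOL6 and APOL4 in treated wild-type cells. Without division by length, APOL6 was the highest member in every group, at 1336 CPM against 510 CPM for APOL1 in treated knockout cells. APOL3 was the lowest detected member with IFN-γ and APOL4 the lowest without it.

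**Figure D2:**
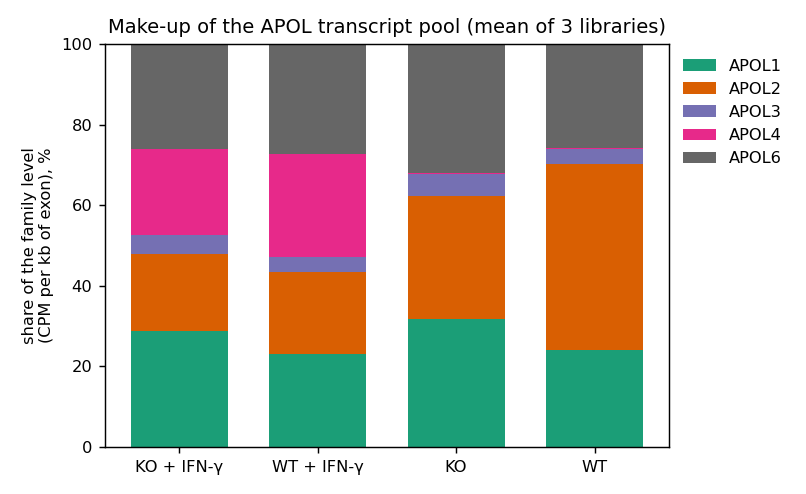
Share of each detected APOL gene in the family's summed level per kilobase of exon, mean of 3 libraries a group. APOL4 is almost absent without IFN-γ and makes up 21.3% and 25.6% with it; APOL2 falls short of its 46.1% share of untreated wild-type cells in the other groups.

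In the comparison of knockout with wild type under IFN-γ, the one the design names, all 5 tested members were higher in the knockout. Their median log2 fold change was 0.39, against -0.01 over all tested genes, of which 22.9% were called higher. APOL1 was higher by 0.77 (SE 0.04, adjusted p = 2.4e-17, edgeR) and APOL3 by 0.71 (SE 0.06, adjusted p = 6.9e-11). APOL6 was higher by 0.39 (SE 0.04, adjusted p = 1.9e-10) and APOL2 by 0.36 (SE 0.04, adjusted p = 8.7e-09). APOL4 differed least, by 0.18 (SE 0.04, adjusted p = 0.00013), although none of its libraries overlapped between genotypes. With library totals in place of TMM scaling, APOL4 was at 0.10 (adjusted p = 0.022), and genes higher in the knockout made up 35.6% of all calls in place of 48.6%. These are changes of 1.13-fold to 1.71-fold, small beside the response to IFN-γ itself.

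Without IFN-γ, the members divided. APOL3 (0.73, SE 0.11, adjusted p = 1.5e-06), APOL1 (0.58, SE 0.05, adjusted p = 1.3e-11) and APOL6 (0.50, SE 0.04, adjusted p = 9.7e-12) were higher in the knockout by edgeR on the log2 scale. APOL2 was lower (-0.40, SE 0.05, adjusted p = 4.4e-08), at 75.8% of the wild-type level. Among all tested genes, 25.4% were called higher and 24.8% lower. APOL4 had 21 counts in all in untreated knockout cells and 31 in untreated wild-type cells. Its fitted value was -0.58 (SE 0.32, adjusted p = 0.22, edgeR), but nothing is read from it, since the gene passed the filter through its treated libraries and drops out when only the untreated ones are fitted.

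**Figure D3:**
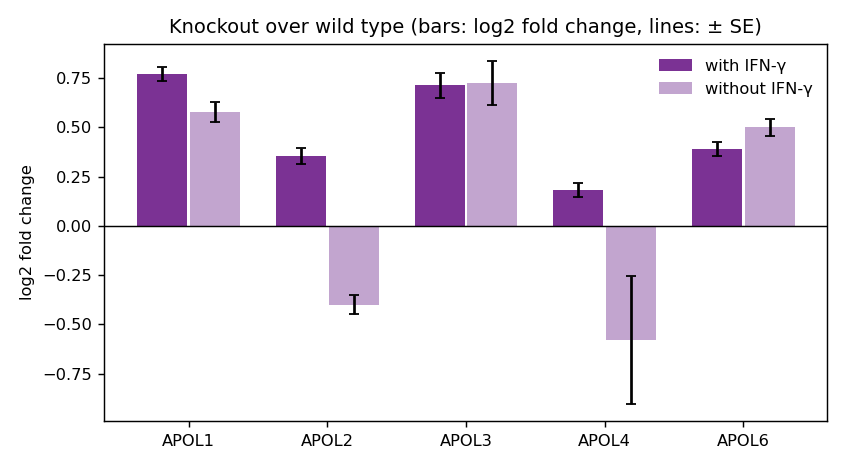
Log2 fold change of SDC3 knockout over wild type for each detected APOL gene, with and without IFN-γ; bars are the fitted values and lines ± SE. APOL1, APOL3 and APOL6 are positive in both treatments, APOL2 is 0.36 with IFN-γ and -0.40 without it, and APOL4 without IFN-γ has the widest error.

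The difference of the responses, knockout minus wild type, was called for 2 members, both upward, where 7.61% of all tested genes were called with a larger and 7.86% with a smaller response in the knockout (15.5% in all). It uses the same libraries as the responses for which the family was picked, but the choice fixed no direction for it. For APOL2 the response was larger in the knockout by a log2 difference of 0.75 (SE 0.06, adjusted p = 1.7e-10, edgeR), and this call held in every alternative run. For APOL1 the difference was 0.19 (SE 0.06, adjusted p = 0.031). The APOL1 call was lost with library totals alone (adjusted p = 0.11). It was also lost without replicate 1 of the treated knockout (0.054), replicate 1 (0.056) or replicate 3 (0.078) of the untreated knockout, replicate 1 of the treated wild type (0.064) or replicate 3 of the untreated wild type (0.088). The differences of APOL4 (0.76, SE 0.33, adjusted p = 0.20), APOL6 (-0.11, SE 0.06, adjusted p = 0.21) and APOL3 (-0.01, SE 0.13, adjusted p = 0.97) did not pass. The APOL4 value rests on the same few untreated counts. With library totals alone, APOL6 was called with a smaller response in the knockout (-0.16, adjusted p = 0.046), and genes with a larger response in the knockout made up 35.0% of calls in place of 49.2%.

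The neighbours of the cluster, taken over the whole window, differed in both directions between genotypes. Within 1 Mb of either end, 22 other genes were tested. With IFN-γ, 5 of them were higher and 6 lower in the knockout (median log2 fold change -0.0035), which is 50% called against 47.2% of all tested genes. Without IFN-γ, 8 were higher and 5 lower (median 0.09), 59.1% against 50.1%. MYH9, the non-muscle myosin heavy chain gene next to APOL1, was at 0.08 with IFN-γ (adjusted p = 0.049) and 0.23 without it (adjusted p = 1.7e-06). RBFOX2, between the 2 ends of the cluster, was at 0.32 (adjusted p = 0.0099) and 0.35 (adjusted p = 0.0042). These were chosen for their position. MB, the tested neighbour on the other side of APOL6, was at 1.48 with IFN-γ and 1.08 without it (adjusted p = 4.2e-05, edgeR). The tested neighbours closest to the members were thus higher in the knockout in both treatments. Whether the region bears on the APOL levels was not tested. The largest differences with IFN-γ were in the myoglobin gene MB (1.48, SE 0.25, adjusted p = 6.4e-06) and the trafficking adaptor gene TOM1 (0.57, SE 0.04, adjusted p = 1.5e-12), which were higher, and in RASD2 (-1.04, SE 0.20, adjusted p = 3.8e-05) and the haem oxygenase gene HMOX1 (-0.58, SE 0.055, adjusted p = 2.3e-10), which were lower.

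Of the 22 neighbours, 5 were called higher and 14 lower with IFN-γ in knockout cells, where 29.2% of all tested genes were higher and 31.8% lower. Neighbours called in this response numbered 14 to 19 when a library was left out, 17 with upper-quartile scaling and 22 with library totals alone. In wild-type cells 5 were higher and 10 lower, against 28.6% and 27.9% of all tested genes. The highest in both genotypes was CSF2RB, the shared receptor chain for GM-CSF, IL-3 and IL-5, at 2.01 (SE 0.04) in knockout and 1.84 (SE 0.04) in wild-type cells on the log2 scale. No neighbour reached the 2.72 of APOL2, the least induced detected member. The family was picked on this same measure, so nothing is read from that. By the test of the difference, 0 of the 22 neighbours had a larger response in the knockout and 4 had a smaller one, led by RASD2 (-1.15, SE 0.26, adjusted p = 0.0018). Only 2 neighbours were called when replicate 3 of the treated knockout, 2 of the untreated knockout, 2 of the treated wild type or 3 of the untreated wild type was left out.

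**Figure D4:**
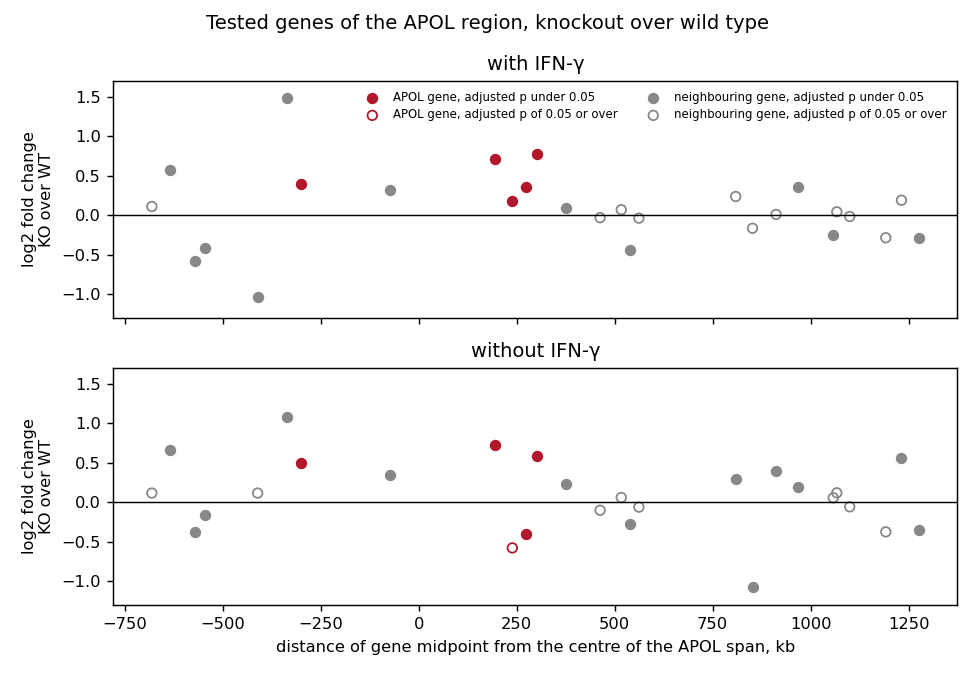
Log2 fold change of SDC3 knockout over wild type for the 5 detected APOL genes and 22 tested neighbours, by distance of each gene's midpoint from the centre of the APOL span in kb, with IFN-γ (top) and without it (bottom). Filled points have an adjusted p under 0.05; neighbours lie on both sides of 0 in both treatments.

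Genes of IFN-γ signalling, inhibitors among them, were mostly higher in the knockout, and whether this bears on the APOL levels was not tested. This list of signalling genes was chosen with earlier results of these data known, so its shares are a description. Of 16 such genes, 11 were higher and 2 lower with IFN-γ (81.2% called against 47.2% of all tested genes, median 0.29), and 11 higher and 1 lower without it (75% against 50.1%, median 0.44). With IFN-γ the deconjugase USP18, a brake on type I interferon signalling, led with 1.30 (SE 0.10, adjusted p = 3.8e-12), followed by the receptor chain IFNGR2 (0.55, SE 0.05, adjusted p = 1.2e-11). STAT2 (-0.28, SE 0.04, adjusted p = 6.1e-08) and the myeloid factor IRF8 (-0.18, SE 0.045, adjusted p = 0.0013) were lower. Without IFN-γ the largest rise was in the feedback inhibitor SOCS3 (0.80, SE 0.09, adjusted p = 1.3e-08). IRF2, which competes with IRF1 for its sites, was the gene that fell (-0.17, SE 0.05, adjusted p = 0.0025). In the difference of responses 2 of the 16 were larger in the knockout, USP18 (0.59, SE 0.19, adjusted p = 0.034) and IRF2 (0.33, SE 0.06, adjusted p = 0.00031). In the same test 6 were smaller, against 7.61% larger and 7.86% smaller of all tested genes, led by IRF8 (-0.71, SE 0.065, adjusted p = 8.1e-10) and IRF1 (-0.47, SE 0.05, adjusted p = 7.2e-08). With IFN-γ 14 of the 16 rose and 1 fell in either genotype, where 29.2% of all tested genes rose and 31.8% fell in knockout cells and 28.6% and 27.9% in wild-type cells.

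The guanylate-binding proteins, IFN-γ-induced GTPases that coat pathogen membranes and act beside APOL3, were all higher in the knockout with IFN-γ (7 of 7, median 0.49), against 22.9% of all tested genes. With upper-quartile scaling or library totals alone, 6 were called in this comparison. This list too was chosen with earlier results of these data known, so its shares are a description. All 7 also rose with IFN-γ, where 29.2% of all tested genes did in knockout and 28.6% in wild-type cells. GBP6 (2.57 against 0.509 CPM; 2.32, SE 0.37, adjusted p = 2.3e-06) and GBP4 (2751 against 1566 CPM; 0.81, SE 0.04, adjusted p = 1.5e-18) differed most. Without IFN-γ 4 were higher and 1 lower, against 25.4% and 24.8% of all tested genes, and 3 were called without replicate 3 of the untreated wild type. GBP4 was higher by 1.23 (SE 0.05, adjusted p = 3.6e-19). GBP6 was among the 4, but at 0.158 against 0.0206 CPM it had too few counts for a fold, and nothing is read from its call. The gene that was lower was GBP1, at 7.53 CPM in knockout cells against 15.1 CPM in wild-type cells (-0.996, SE 0.075, adjusted p = 5.6e-13). GBP1 thus shared with APOL2 a lower untreated level in the knockout and, at 3249.9 against 2450.5 CPM, a higher treated one. The difference of its responses was 1.40 (SE 0.085, adjusted p = 6.4e-14). GBP2 also had a larger response in the knockout (0.39, SE 0.06, adjusted p = 3.2e-06), and GBP4 a smaller one (-0.42, SE 0.06, adjusted p = 6.5e-06).

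The other apolipoproteins, most of which carry lipid in lipoprotein particles, were called about as often as all tested genes in both genotype comparisons. Only 9 of 17 were tested. With IFN-γ 2 were higher and 2 lower in the knockout, 44.4% against 47.2% of all genes, and without it 3 were higher and 2 lower, 55.6% against 50.1%. With IFN-γ APOC1 (0.28, SE 0.04, adjusted p = 1.7e-06) and APOE (1203 against 1010.3 CPM; 0.25, SE 0.04, adjusted p = 7.4e-06) were higher. CLU, the extracellular chaperone clusterin, was lower (12.2 CPM in knockout and 36.1 CPM in wild-type cells; -1.57, SE 0.086, adjusted p = 4.4e-16), and so was APOLD1 (-0.62, SE 0.24, adjusted p = 0.031), a gene related to the APOL genes. Without IFN-γ APOE (0.37, SE 0.04, adjusted p = 6.6e-09) and APOC1 (0.31, SE 0.04, adjusted p = 1.1e-07) were higher, and CLU (-1.68, SE 0.08, adjusted p = 3.0e-17) and APOO (-0.76, SE 0.18, adjusted p = 0.00075) lower. IFN-γ lowered APOC1 by edgeR in both genotypes (193 against 405 CPM in the knockout, adjusted p = 9.1e-21; 158 against 326 CPM in the wild type, adjusted p = 3.5e-20). Here 2 of the 9 rose and 4 fell in the knockout, where 29.2% of all tested genes rose and 31.8% fell. In the wild type 1 rose and 4 fell, against 28.6% and 27.9% of all tested genes. By the test of the difference, 0 of 9 had a larger response in the knockout, against 7.61% of all tested genes. A smaller response was called for 1, APOLD1 (-0.97, SE 0.30, adjusted p = 0.024), against 7.86% of all tested genes. That call was lost when replicate 2 or 3 of the treated knockout, 3 of the untreated knockout, 1 of the treated wild type or 3 of the untreated wild type was left out.

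The genes whose levels followed each member most closely were found among 11418 genes with a symbol and at least 5 CPM in a group. The measure was the root mean square distance of log2 CPM, centred on each gene's mean, over the 12 libraries. APOL1, APOL3 and APOL6 were near each other, at distances of 0.144 (APOL1 and APOL6), 0.155 (APOL1 and APOL3) and 0.200 (APOL3 and APOL6). APOL2 stood 0.524 to 0.604 from these 3 and APOL4 3.19 to 3.22. The gene nearest to APOL1 was STAP1, a myeloid and B-cell adaptor (0.138), with APOL6 and APOL3 next. Nearest to APOL3 were APOL1, STAP1 (0.191) and the complement protease C1S (0.199). Nearest to APOL6 were APOL1, the tryptophanyl-tRNA synthetase WARS1 (0.147) and the ADP-ribosyltransferase PARP14 (0.159).

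The genes nearest to APOL2 were picked for that likeness over the same 12 libraries, so their order between genotypes is a description with no test. KIAA0040 (distance 0.125) averaged 178 CPM in knockout cells against 120 CPM in wild-type cells with IFN-γ, and 14.3 against 17.2 CPM without it. GK4P (0.158) averaged 189 against 133 CPM with IFN-γ and was lower in the knockout without it. The antiviral RNA-binding protein gene IFIT5 (0.159) averaged 91.5 against 69.6 CPM with IFN-γ and 9.51 against 10.02 CPM without it.

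The genes near APOL4 were farther off than those of any other member. Among them were the complement gene C1QB (0.743) and GBP5 (0.759). C1QB averaged 89.4 CPM in knockout cells against 216 CPM in wild-type cells with IFN-γ, and 0.0668 against 0.253 CPM without it. Since 3 counts in a library stand for 0.0925 to 0.130 CPM, nothing is read from the untreated means. With IFN-γ the mean level of C1QB was lower in the knockout, where that of APOL4 was higher, and this was not tested for C1QB.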

How the data were processed

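RNA-seq read counts of 12 THP-1 libraries were analysed, grouped by genotype and treatment from the sample titles. The authors deposited raw counts per Ensembl gene; per the file headers, exon reads were counted with featureCounts 2.0.3 for paired reads, primary alignments only and without chimeric pairs. No strand option appears there, and mates were counted separately (70.4% to 73.3% of counts from 1 to 19 were even). Libraries were made with a stranded mRNA kit and the build was hg38, per the labels; fastp 0.23.2, STAR 2.7.10b, BWA and Picard 2.27.5 are named in the submitters' processing notes, and which aligner was counted is not given in the sources used here.

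From these, CPM and fold changes were derived. Genes passed edgeR's filterByExpr, were scaled by TMM and tested with edgeR 4.0.16 in R 4.3.3 (quasi-likelihood) in a single model of the 4 groups; p-values were adjusted by Benjamini-Hochberg over 17119 genes and called under 0.05, two-sided. SEs came from the information matrix of that model, scaled by its quasi-likelihood variance. The fit was tested on simulated data. Alternatives were DESeq2 1.42.0, RLE, upper-quartile and no scaling, no filter, at least 5 CPM in 3 libraries, the compared libraries only, the replicate number as a block and each library left out. The chi-square per degree of freedom of replicate pairs was 2.8 to 7.0, so no library was a duplicate. Members and lists were chosen with earlier results of these data known. Named genes, where values bear on a member, were the members, SDC3, the 2 largest called rises and falls of each list and the 3 genes nearest to each member; for the responses to IFN-γ only CSF2RB and APOC1 are given, and MYH9 and RBFOX2 were added by position. Some genes that this rule names are not reported here. A planned promoter motif search and protein comparison were not made here. Gene names came from a reference table holding 56948 of the 58051 genes.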

Additional observations from a re-analysis of the deposited data

Results flagged for a closer look

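The IFN-γ response of APOL2 differed between the genotypes by the test of the difference itself: it was larger in the knockout than in the wild type by 0.75 on the log2 scale (adjusted p = 1.7e-10, edgeR), with all 3 knockout libraries above the wild type with IFN-γ and all 3 below it without IFN-γ. The response of APOL1 differed in the same test by 0.19 (adjusted p = 0.031). For APOL1 the adjusted p ranged from 0.0071 to 0.11 over the alternatives, and its knockout libraries were above the wild type in both treatments.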

How the results depend on the processing

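The called genotype differences of the members kept their direction and their call in all 20 alternatives, with and without IFN-γ, while APOL4 without IFN-γ, not called, had 19, since it did not pass the filter with only the compared libraries; the smallest called one, APOL4 with IFN-γ, ranged from 0.10 to 0.20 on the log2 scale (adjusted p at most 0.022). The same held for the difference of responses of APOL2 (0.71 to 0.79). APOL members called in that difference numbered 1 to 2 when a library was left out. The other apolipoproteins called in it numbered 2 with no scaling, 0 with at least 5 CPM required (fewer genes tested) and 0 to 1 when a library was left out; in the wild-type response they numbered 3 with at least 5 CPM required (fewer genes tested). Guanylate-binding proteins called without IFN-γ numbered 3 with only the compared libraries, for which the cause was not tested, and 3 to 5 when a library was left out. With IFN-γ those called numbered 6 to 7 when a library was left out and 6 with upper-quartile or no scaling. They numbered 5 with at least 5 CPM required (fewer genes tested). Neighbours called in the difference of responses numbered 2 to 6 when a library was left out. With the replicate number as a replicate block, 7983, 8500 and 2588 genes were called with IFN-γ, without it and in the difference of responses, and 5, 4 and 2 members, with no member's call changed (APOL1 in the difference at adjusted p = 0.04). Same-numbered libraries did not deviate together (correlations of -0.15 to 0.11). Between genotypes, 4 of 6 libraries correlated best with their own number with IFN-γ and 0 of 6 without it. Between treatments, 2 of 6 did so in either genotype. With no steady preference for the own number, the numbers were not taken to pair the samples. Depth limits APOL4 without IFN-γ, at 6 to 12 counts a library, and APOL5, at 0.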
